A study of Mus musculus with 18 samples.

Results

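The erythroid genes examined in mouse spleen are genes of red cell precursors for globin chains, haem synthesis, iron uptake, the red cell membrane and the transcription factors of the lineage. The members are 40 genes named by symbol, taken as the rows of the deposited expression table that carry those symbols. Of the 40, 39 had a row among the 56876 genes of the table. Expression is given as TPM, which are read numbers divided by transcript length and scaled to a fixed total. A filter of at least 1 TPM in at least 3 libraries was passed by 38 members, and 35 had at least 1 TPM in all 18 libraries. Trim58 was the member with a row that did not pass, with 0.07 to 1.18 TPM, and Ahsp was not analysed here.

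Splenocyte RNA was sequenced from female BALB/c mice 29 days after the start of an experiment in which 4T1 cells, a mouse mammary carcinoma line that stands for triple-negative breast cancer, were placed in the mammary pads of part of the mice. Antibody to G-CSF, antibody to PD-1, or anti-IgG in PBS was injected into the peritoneum on days 18, 21 and 24 at 10 mg/kg. The study asks how these antibodies alter immune cells and blood formation in tumour-bearing mice. The 18 libraries form 6 groups of 3, which are named by their titles, T_GC, T_P and T_I for tumour-bearing mice and N_GC, N_P and N_I for mice without a tumour.

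No genotype beyond the strain, no age and no individual animal is named for any group. All groups therefore share strain and sex, and p-values measure the spread between libraries, which may in part be technical. No label spells out GC, P or I. The labels also conflict, since the treatment tag gives anti-PD-1 for all T libraries and WT for all N libraries, and the cell type tag calls every library tumour-bearing. The groups here follow the titles.

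Red cells form from progenitors that come under the control of GATA1, TAL1 and KLF1, respond to erythropoietin through its receptor, take up iron through the transferrin receptor, and fill with haemoglobin made from haem and alpha and beta globin chains. ALAS2 carries out the first step of haem synthesis in erythroid cells. The mouse spleen, unlike the adult human spleen, keeps red cell formation through adult life and enlarges it under stress. Transcription factor and receptor transcripts mark nucleated precursors, whereas globin transcripts build up late in maturation and persist in reticulocytes, the youngest red cells of the blood.

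The globin copies are shown first because their values cannot be read one by one. Hbb-bs and Hbb-bt, the adult beta globins on chromosome 7 of the reference strain, differ at 1 of 444 coding bases, which leaves 99.77% identical with a longest identical run of 416. Hba-a1 and Hba-a2, the adult alpha globins on chromosome 11, differ at 1 of 429 coding bases with a longest identical run of 380. The stretches below, coding bases 385 to 444 for the beta copies and 351 to 410 for the alpha copies, hold that difference as a capital letter. They were read by name from GENCODE transcripts of build GRCm38, where the genes lie at chr7:103826534-103827928 (Hbb-bs, minus strand), chr7:103812524-103813996 (Hbb-bt, minus strand), chr11:32283511-32284465 (Hba-a1, plus strand) and chr11:32296489-32297298 (Hba-a2, plus strand).
Hbb-bs: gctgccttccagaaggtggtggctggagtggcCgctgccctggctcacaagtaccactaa
Hbb-bt: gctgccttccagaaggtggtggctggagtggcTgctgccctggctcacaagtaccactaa
Hba-a1: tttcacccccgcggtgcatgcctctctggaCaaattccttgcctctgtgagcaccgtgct
Hba-a2: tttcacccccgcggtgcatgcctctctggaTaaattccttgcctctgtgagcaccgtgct
As background, BALB/c mice are known to carry another beta globin haplotype than the reference strain. How their reads divide between the reference copies was not tested, so each pair, and the sum of the 4 genes, is the firmer measure.

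The bases before the start of transcription are shown for a globin, an enzyme, a transcription factor and a receptor, because these genes did not move alike. The windows are the 250 bases before the RefSeq start on build GRCm38.p6, given on the strand of the gene. Capitals mark AGATAA or AGATAG and TGATAA or TGATAG, which are letters bound by GATA factors, and CACCC, letters bound by factors such as KLF1, on either strand. The windows lie at chr7:103827929-103828178 for Hbb-bs, chrX:150547167-150547416 for Alas2, chr8:84901732-84901981 for Klf1 and chr9:21963577-21963826 for Epor.
Hbb-bs: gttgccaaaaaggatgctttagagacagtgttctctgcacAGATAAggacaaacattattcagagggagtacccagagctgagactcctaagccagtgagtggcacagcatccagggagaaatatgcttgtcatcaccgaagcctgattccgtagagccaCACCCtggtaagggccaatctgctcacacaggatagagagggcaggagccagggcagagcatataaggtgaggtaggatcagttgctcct
Alas2: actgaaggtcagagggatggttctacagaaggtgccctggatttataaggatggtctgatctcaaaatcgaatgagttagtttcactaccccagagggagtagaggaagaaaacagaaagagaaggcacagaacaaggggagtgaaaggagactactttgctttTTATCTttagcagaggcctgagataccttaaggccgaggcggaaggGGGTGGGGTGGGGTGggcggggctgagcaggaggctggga
Klf1: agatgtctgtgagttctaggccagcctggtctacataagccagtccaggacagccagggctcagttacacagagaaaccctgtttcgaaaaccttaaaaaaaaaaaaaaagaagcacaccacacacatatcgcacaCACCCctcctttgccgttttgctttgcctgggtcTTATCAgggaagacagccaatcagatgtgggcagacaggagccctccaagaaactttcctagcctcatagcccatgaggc
Epor: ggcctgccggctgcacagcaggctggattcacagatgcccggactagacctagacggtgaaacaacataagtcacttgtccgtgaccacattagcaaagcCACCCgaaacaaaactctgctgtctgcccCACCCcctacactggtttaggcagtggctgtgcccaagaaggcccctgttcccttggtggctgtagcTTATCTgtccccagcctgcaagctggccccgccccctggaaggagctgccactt
All 4 windows held both kinds of letters, including those of genes that differed in opposite directions. These 4 were a choice, since Tfrc was planned for display and is not shown, and Hbb-bs was added. The windows of Tfrc, Hbb-bt and Gata1 held CACCC and no GATA letters. Among the 30 members with a window in the RefSeq table, 19 (63.3%) held GATA letters. The share was 21.0% of 10467 genes that were tested and 29.7% of all 27025 genes with a window. A gene with several windows was counted if any of them matched. CACCC was in 22 (73.3%), against 60.8% of tested genes and 54.5% of all genes with a window. Both occurred in 14 (46.7%), against 11.1% and 13.5%. A match describes the letters and does not show a bound site.

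Values are TPM, which are scaled within each library to a fixed total and carry no record of sequencing depth, so the depth behind each value is unknown. B cell and T cell markers, 5 of each, were present in every library, and their levels are given beside the globins. Neutrophil and precursor markers summed to 35888 to 57703 TPM in T_GC, 184550 to 200490 TPM in T_P and 191240 to 199060 TPM in T_I. In N_GC they summed to 428 to 987 TPM, in N_P to 2705 to 4647 TPM and in N_I to 1891 to 6741 TPM. All 10 were higher in T than in N under each code. Because all genes share the fixed total of a library, each comparison was repeated with median-of-ratios scaling, which sets the typical gene to one level in all libraries. That scaling moved the median difference of all genes (log2 units) between tumour-bearing and tumour-free spleens by 0.08 for GC, 0.38 for P and 0.42 for I, and between T_GC and either of T_P and T_I by -0.38.

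Globin and Alas2 transcripts were lower in T_I and T_P than in their tumour-free counterparts. Transcripts of erythroid transcription factors and of several red cell membrane proteins were higher in T_P and T_GC. In T_I, 2 of 5 factors and 2 of 9 membrane and skeleton genes were higher (17.4% of all genes). Median-of-ratios scaling made these 5 and 5 (32% of all genes). Klf1, for example, averaged 15.8 TPM in T_GC, 16.5 in T_P and 16.0 in T_I, against 6.64 in N_GC, 5.85 in N_P and 10.3 in N_I. Differences are given in log2(TPM + 1), which understates changes of weakly expressed genes, and a gene was called at an adjusted p of 0.05 in limma with the Benjamini-Hochberg adjustment over all 16635 genes tested. In bulk RNA, fewer cells of a type and less RNA per cell cannot be told apart.

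Counts of members called depended on the code. In T_GC against N_GC, 15 of the 38 members tested were higher (14.3% of all genes) and 1 was lower (18.9% of all genes). In T_P against N_P, 17 were higher (18.9% of all genes) and 10 lower (50.3%). In T_I against N_I, 7 were higher (17.4% of all genes) and 12 lower (52.4%). Median-of-ratios scaling turned these counts of higher and lower members into 15 and 0 for GC (18% and 13.1% of all genes), 21 and 7 for P (32.3% and 30.5%), and 18 and 7 for I (32% and 30.2%). The median difference of the members was 0.43, against -0.09 for all genes, in GC. It was 0.16, against -0.41, in P and -0.09, against -0.45, in I. Single libraries moved some counts. In I, 4 members were higher without T_I 8 or without T_I 27, and in P 11 were higher without T_P 26 or without N_P 17. In GC, 3 were lower without T_GC 10, 0 without N_GC 36 and 6 without N_GC 94.

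**Figure D1:**
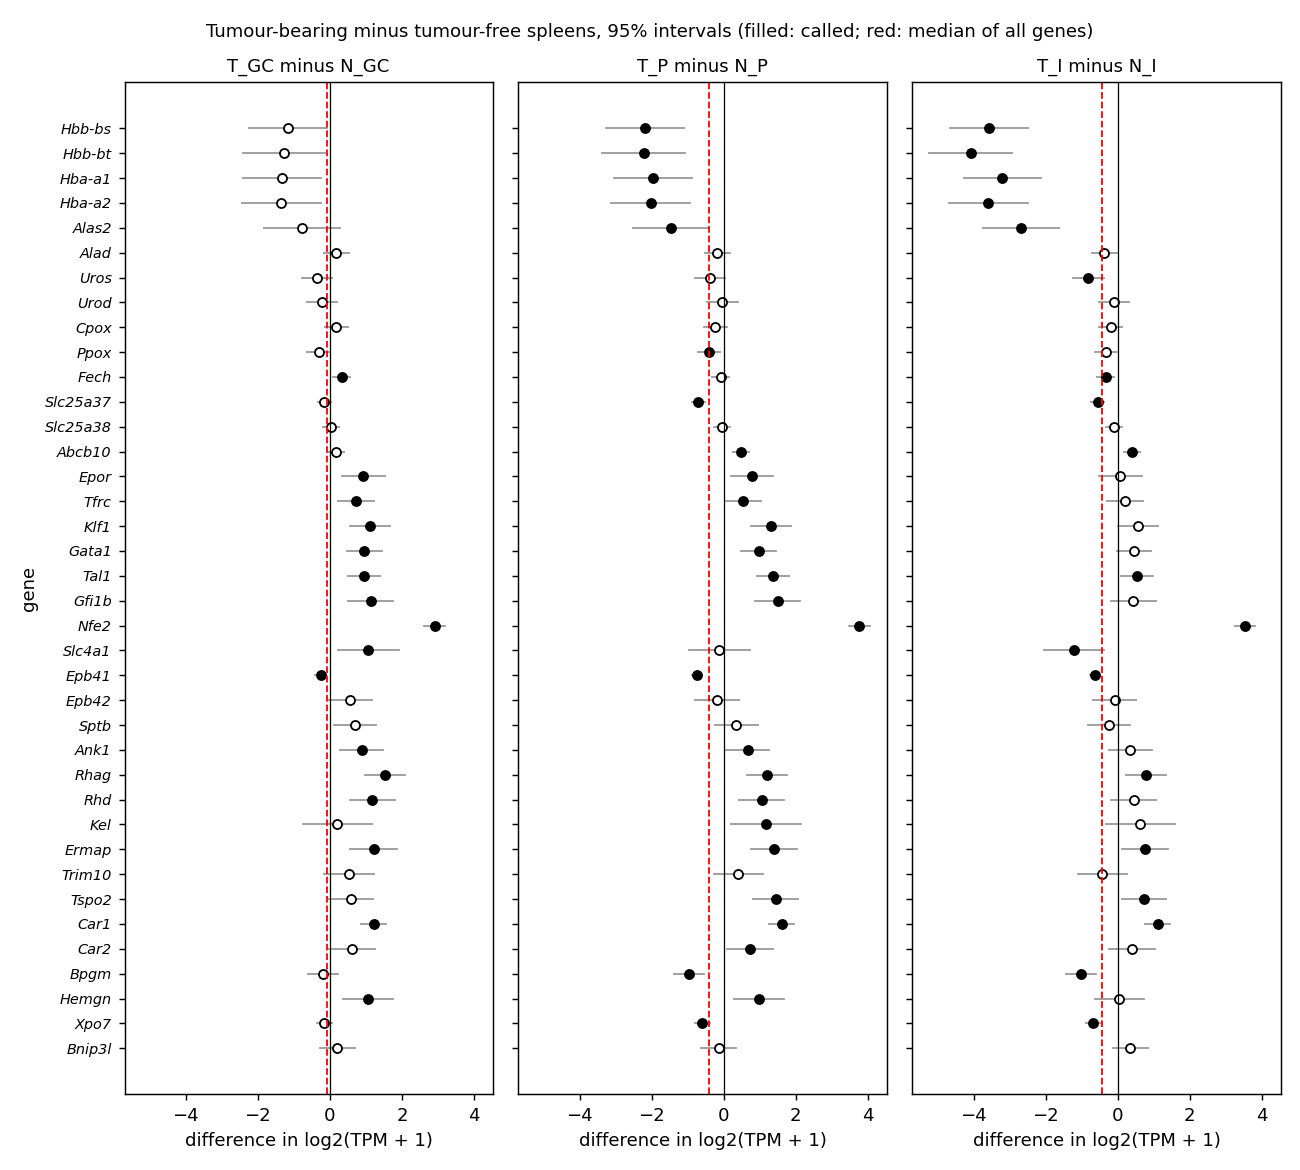
Difference in log2(TPM + 1) between tumour-bearing and tumour-free spleens for the 38 members that passed the filter, with 95% intervals, under GC, P and I. Filled points were called, the red line is the median of all genes, and the 4 globins and Alas2 lie furthest left while Nfe2 lies furthest right in all 3 panels.

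Adult globin transcripts, the product of late red cell precursors and reticulocytes, were far lower in T_I and T_P spleens. The 4 genes summed to 1651, 2316 and 2918 TPM in T_GC, to 701, 819 and 331 TPM in T_P and to 561, 393 and 814 TPM in T_I. The sums were 6388, 10740.1 and 2333 TPM in N_GC, 1655, 2139 and 4091 TPM in N_P and 6663, 8703 and 4877 TPM in N_I. Every T_I library lay below every N_I library and every T_P library below every N_P library, whereas T_GC and N_GC overlapped. The sum fell in T_I by 3.54 against N_I (standard error 0.51, limma adjusted p = 1.9e-05) and in T_P by 2.08 against N_P (0.51, adjusted p = 0.00202). In T_GC it differed from N_GC by -1.28 (95% interval -2.37 to -0.19, adjusted p = 0.0667), which was not called, and leaving out N_GC 94, the library with the lowest sum of its group, gave -1.89 with an adjusted p of 0.00767. Under median-of-ratios scaling the sum differed by -3.01 in I, -1.59 in P and -1.18 in GC, with I and P still called.

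Markers of lymphocytes were lower in the same spleens. All 5 B cell and all 5 T cell markers were called lower in T_I, with median differences of -2.25 and -2.67, and in T_P, with -2.29 and -3.16, beside globin medians of -3.59 in T_I and -2.11 in T_P. In T_GC 1 B cell marker and all 5 T cell markers were called lower, with medians of -0.48 and -1.27. B cell markers summed to 1685.5 to 2727 TPM in T_GC, 461 to 738 TPM in T_P and 383 to 794 TPM in T_I, against 2781 to 3123 TPM in N_GC, 2576 to 3019 TPM in N_P and 2378 to 2882 TPM in N_I. T cell markers summed to 437 to 655 TPM in T_GC, 132 to 164 TPM in T_P and 158 to 172 TPM in T_I, against 1294 to 1375 TPM in N_GC, 1097 to 1209.8 TPM in N_P and 829 to 1136.5 TPM in N_I. None of the 10 was at 0 in any library. Their part in the globin result was not tested.

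The copies moved together. Hbb-bs measured 593, 862 and 1083 TPM in T_GC, 221, 279.9 and 112 TPM in T_P and 186, 130.4 and 282 TPM in T_I. It measured 2139, 3647 and 812 TPM in N_GC, 588, 761 and 1454 TPM in N_P and 2361, 2996 and 1676 TPM in N_I. T_P and T_I formed the lowest libraries, each apart from its tumour-free group.
Hba-a2 measured 755, 1012 and 1314 TPM in T_GC, 338, 372 and 150.4 TPM in T_P and 241, 172 and 359.6 TPM in T_I. Its tumour-free values were 3069, 4995 and 1076 TPM in N_GC, 746, 965 and 1819 TPM in N_P and 2982, 4026 and 2241 TPM in N_I. T_P and T_I were again the lowest 6 libraries.
Hbb-bt, the weakest adult copy, had 41.7, 72.6 and 102.6 TPM in T_GC, 14.9, 24.5 and 10.2 TPM in T_P and 17.03, 5.5 and 17.02 TPM in T_I. Its N_GC values were 174, 341 and 75.9 TPM, its N_P values 55.4, 65.0 and 121.8 TPM and its N_I values 224, 276 and 166 TPM. Hba-a1 had 262, 369.8 and 418 TPM in T_GC, 127, 142 and 57.8 TPM in T_P and 116, 85.1 and 155 TPM in T_I, against 1005, 1756 and 368 TPM in N_GC, 266, 348 and 696 TPM in N_P and 1096, 1405 and 795 TPM in N_I. All 4 copies were called lower in T_I, by -3.20 (Hba-a1) to -4.09 (Hbb-bt), and in T_P, by -1.97 (Hba-a1) to -2.22 (Hbb-bt), and none was called in T_GC against N_GC, where they differed by -1.17 to -1.35.

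The balance between the chains moved little beside these falls. Summed alpha over summed beta transcripts was 1.46 to 1.60 in T_GC, 1.69 to 1.97 in T_P and 1.72 to 1.89 in T_I, and 1.63 to 1.76 in N_GC, 1.57 to 1.60 in N_P and 1.58 to 1.66 in N_I. Hbb-bt held 4.05% to 9.01% of beta transcripts and Hba-a1 24.1% to 33.1% of alpha transcripts across the 18 libraries. The highest Hba-a1 shares, 30.1% to 33.1%, were those of the T_I libraries. These ratios are descriptions of single libraries and were not tested.

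**Figure D2:**
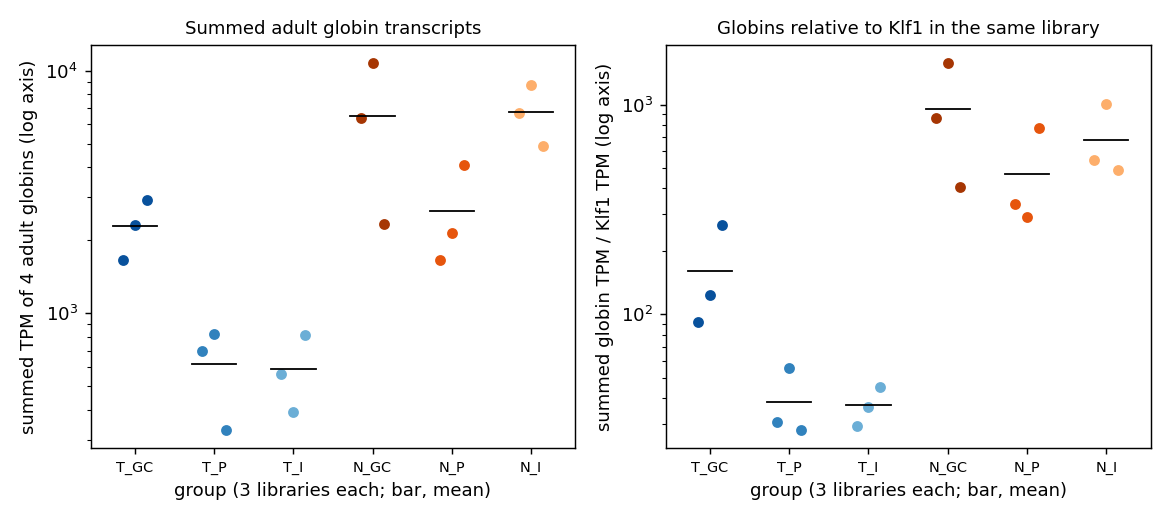
Summed TPM of the 4 adult globins (left) and the same sum divided by Klf1 TPM in the same library (right), both on log axes, with 3 libraries per group as points and the mean as a bar. On the left T_P and T_I libraries, 331 to 819 TPM, lie below the other libraries, and on the right all T libraries lie below all N libraries.

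Alas2, the erythroid enzyme that starts haem synthesis, followed the globins rather than the rest of its pathway. It measured 7.29, 11.6 and 15.6 TPM in T_GC, 3.62, 4.25 and 1.92 TPM in T_P and 3.09, 3.25 and 5.47 TPM in T_I. In tumour-free spleens it measured 26.4, 39.6 and 6.62 TPM in N_GC, 8.06, 7.6 and 17.7 TPM in N_P and 32.7, 32.9 and 25.4 TPM in N_I. T_I lay wholly below N_I and T_P below N_P, while T_GC overlapped N_GC. Alas2 fell by 2.69 in T_I (limma adjusted p = 0.000189) and by 1.45 in T_P (adjusted p = 0.0163), and differed by -0.77 in T_GC (adjusted p = 0.252). The P call was lost under median-of-ratios scaling (-1.06, adjusted p = 0.0819) and without T_P 43 (-1.20, adjusted p = 0.0682) or N_P 38 (-1.09, adjusted p = 0.0822).

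The other 6 enzymes of the pathway, which every cell that makes haem uses, changed by less than 1 log2 unit. Uros, which closes the porphyrin ring, had 6.57 to 13.9 TPM in T_I, against 16.4 to 19.1 TPM in N_I, and fell by 0.82, a call lost under median-of-ratios scaling (-0.34). Fech, which inserts the iron, fell by 0.34 in T_I, turning to 0.17 under median-of-ratios scaling, and rose by 0.33 in T_GC, where it had 25.3 to 29.0 TPM, against 17.7 to 24.5 TPM in N_GC. In T_P its difference of -0.09, not called, was 0.38 and called higher under that scaling. Ppox fell by 0.41 in T_P, turning to 0.06 under that scaling. Alad, Urod and Cpox were called in none of the 3 comparisons, with differences of -0.38 to 0.18, but that scaling called Urod higher in T_P (0.44) and Cpox higher in T_I (0.31).

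Among the mitochondrial carriers, Slc25a37 (mitoferrin 1), which brings iron to the haem pathway, had 37.2 to 41.7 TPM in T_P and T_I, against 53.1 to 68.4 TPM in N_P and N_I. It fell by 0.71 in T_P and by 0.55 in T_I, and differed by -0.15 in T_GC. Under median-of-ratios scaling the T_I difference was -0.04 and was not called. Abcb10, a transporter of the inner mitochondrial membrane needed for haem synthesis in erythroid cells, measured 5.17, 5.01 and 4.6 TPM in T_GC, 6.99, 5.99 and 5.09 TPM in T_P and 6.9, 6.29 and 6.24 TPM in T_I. Its levels were 4.3, 4.65 and 3.96 TPM in N_GC, 3.99, 3.86 and 4.12 TPM in N_P and 5.05, 4.55 and 4.4 TPM in N_I. It rose by 0.48 in T_P and by 0.40 in T_I, where the groups did not overlap, and differed by 0.16 in T_GC. Slc25a38, which serves glycine supply for haem synthesis, was called in none of the 3, with differences of -0.10 to 0.03. Under median-of-ratios scaling it was called higher in T_P (0.43) and in T_I (0.41).

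The receptors were higher in part of the tumour-bearing spleens. Epor, the erythropoietin receptor, measured 9.78, 9.71 and 10.0 TPM in T_GC, 10.96, 6.39 and 6.0 TPM in T_P and 7.78, 3.8 and 9.75 TPM in T_I. Its tumour-free values were 4.74, 5.16 and 4.16 TPM in N_GC, 2.91, 4.41 and 4.83 TPM in N_P and 5.03, 5.68 and 8.65 TPM in N_I. T_GC and T_P lay above their tumour-free groups, and T_I overlapped N_I with its lowest value in T_I 12. Epor rose by 0.93 in T_GC (limma adjusted p = 0.0174) and by 0.78 in T_P (adjusted p = 0.0211), and differed by 0.07 in T_I (95% interval -0.52 to 0.66). The calls were lost without N_GC 94 (0.86, adjusted p = 0.0572) in GC and, in P, without T_P 26 (0.53, adjusted p = 0.115) or N_P 17 (0.60, adjusted p = 0.0948).

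Tfrc, the transferrin receptor, which proliferating cells of other lineages use too, measured 63.7, 49.7 and 29.2 TPM in T_GC, 43.4, 39.6 and 31.8 TPM in T_P and 43.3, 24.7 and 36.6 TPM in T_I. In N_GC it had 27.8, 24.5 and 28.3 TPM, in N_P 26.1, 24.6 and 26.6 TPM and in N_I 34.2, 28.4 and 26.7 TPM. T_GC and T_P lay above their tumour-free groups, with T_GC 37 the closest to them, and T_I overlapped N_I. It rose by 0.73 in T_GC (adjusted p = 0.0249) and by 0.54 in T_P (adjusted p = 0.0499), and differed by 0.19 in T_I, which median-of-ratios scaling made 0.70 and called. These calls were near the threshold, and leaving out T_GC 10, T_GC 21, N_GC 11 or N_GC 36 in GC, or any library of the P comparison but T_P 43, ended them, with adjusted p up to 0.150. The 5 proliferation markers summed to 236 to 538 TPM in T_GC, 624 to 710 TPM in T_P and 647 to 714 TPM in T_I, against 41.1 to 52.9 TPM in N_GC, 55.9 to 79.2 TPM in N_P and 79.7 to 109 TPM in N_I, all 5 higher in T under each code. Their part in the Tfrc result was not tested.

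The 5 transcription factors were all called higher in T_GC (14.3% of all genes) and T_P (18.9%), and in T_I 2 of them, Nfe2 and Tal1, were (17.4%). Klf1, an activator of beta globin, measured 17.9, 18.6 and 10.98 TPM in T_GC, 22.9, 14.7 and 11.8 TPM in T_P and 19.1, 10.9 and 18.1 TPM in T_I. Its tumour-free values were 7.39, 6.79 and 5.74 TPM in N_GC, 4.9, 7.36 and 5.28 TPM in N_P and 12.2, 8.61 and 10.0 TPM in N_I. T_GC and T_P stood above their tumour-free groups without overlap, and T_I 12 lay within the range of N_I. Klf1 rose by 1.11 in T_GC (limma adjusted p = 0.00416) and by 1.32 in T_P (adjusted p = 0.000342), and differed by 0.57 in T_I (95% interval 0.02 to 1.12, adjusted p = 0.062).

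Gata1, the GATA factor of red cell and megakaryocyte precursors, measured 15.6, 15.7 and 13.2 TPM in T_GC, 17.7, 11.9 and 9.21 TPM in T_P and 13.7, 11.1 and 14.5 TPM in T_I. Without a tumour it measured 9.81, 7.41 and 4.87 TPM in N_GC, 5.79, 4.84 and 7.21 TPM in N_P and 9.97, 9.58 and 8.25 TPM in N_I. No group overlapped its counterpart. The rise was 0.96 in T_GC (adjusted p = 0.00448) and 0.97 in T_P (adjusted p = 0.00138), and in T_I the difference was 0.45 (adjusted p = 0.0868).

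Gfi1b, a repressor that precursors need to mature, measured 14.3, 12.4 and 6.91 TPM in T_GC, 17.7, 10.2 and 10.3 TPM in T_P and 10.6, 9.37 and 10.9 TPM in T_I. It had 5.34, 4.13 and 3.68 TPM in N_GC, 2.39, 4.8 and 4.41 TPM in N_P and 6.65, 5.45 and 10.9 TPM in N_I. T_GC and T_P were separate from their tumour-free groups, and T_I overlapped N_I through N_I 96. Gfi1b rose by 1.14 in T_GC and by 1.49 in T_P, and differed by 0.43 in T_I (adjusted p = 0.2). Tal1, a partner of GATA1, rose by 0.94 in T_GC, 1.37 in T_P and 0.54 in T_I. With median-of-ratios scaling all 5 factors were called higher in T_I as well (32% of all genes), Klf1 by 1.06 and Gata1 by 0.94.

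Gata1 is also used by mast cells, basophils and eosinophils, and Gata1, Gfi1b and Nfe2 by megakaryocytes. The 8 mast cell, basophil and eosinophil markers were all higher in T under each code, with sums of 191 to 297 TPM in T_GC, 797 to 1261 TPM in T_P and 775 to 899 TPM in T_I, against 12.1 to 14.95 TPM in N_GC, 16.7 to 24.8 TPM in N_P and 17.1 to 50.4 TPM in N_I. Of 8 markers in that list, Epx was at 0 in 2 libraries. Of 10 megakaryocyte and platelet markers, 8 were tested, and none was called in GC or P, while in I 1 was higher and 1 lower. Their sums were 44.7 to 67.4 TPM in T_GC, 29.0 to 43.9 TPM in T_P and 37.98 to 52.8 TPM in T_I, against 37.5 to 42.6 TPM in N_GC, 34.4 to 52.0 TPM in N_P and 45.4 to 100.2 TPM in N_I. The part of mast cells, basophils and eosinophils in the transcription factor results was not tested.

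Nfe2, a subunit of a factor that binds globin control regions, behaved unlike the other 4. It measured 60.1, 73.8 and 69.9 TPM in T_GC, 217, 235 and 229.5 TPM in T_P and 233, 234 and 207 TPM in T_I. It measured 9.57, 6.64 and 8.56 TPM in N_GC, 17.9, 14.1 and 15.5 TPM in N_P and 15.3, 18.4 and 22.1 TPM in N_I. The groups T_P and T_I lay above T_GC, T_GC above N_P and N_I, and these above N_GC, with no overlap between these steps. Nfe2 rose by 2.90 in T_GC (standard error 0.13, limma adjusted p = 3.5e-09), 3.77 in T_P (adjusted p = 1.64e-11) and 3.54 in T_I (adjusted p = 4.11e-11), and was called under each alternative in these comparisons. The neutrophil marker sums given above fell into the same steps. Their part in the Nfe2 result was not tested.

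Membrane and skeleton genes differed among themselves. Rhag, the Rh-associated glycoprotein, measured 9.58, 9.17 and 6.41 TPM in T_GC, 9.06, 6.0 and 3.96 TPM in T_P and 7.0, 8.47 and 8.41 TPM in T_I. Its values were 2.71, 2.61 and 1.44 TPM in N_GC, 1.34, 2.61 and 2.44 TPM in N_P and 5.47, 3.76 and 3.5 TPM in N_I. Each tumour-bearing group lay above its counterpart. Rhag rose by 1.54 in T_GC (limma adjusted p = 0.000351), 1.20 in T_P (adjusted p = 0.000756) and 0.79 in T_I (adjusted p = 0.0133), the last not called without N_I 96 (0.69, adjusted p = 0.0507). Ermap, an erythroid surface protein of the immunoglobulin family, averaged 17.4 ± 6.27 TPM in T_GC, 15.7 ± 5.60 TPM in T_P and 15.7 ± 4.52 TPM in T_I, against 6.73 ± 1.83 TPM in N_GC, 5.14 ± 0.970 TPM in N_P and 8.67 ± 1.08 TPM in N_I (SD, n = 3 each). It rose by 1.22 in T_GC, 1.40 in T_P and 0.76 in T_I. Rhd, the Rh blood group protein, rose by 1.18 in T_GC and 1.05 in T_P, and differed by 0.44 in T_I, which median-of-ratios scaling made 0.91 and called.

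Slc4a1, the anion exchanger band 3, which is made late and abundantly, gave opposite calls under different codes. It measured 11.2, 14.9 and 5.49 TPM in T_GC, 6.78, 5.04 and 1.49 TPM in T_P and 5.63, 3.99 and 6.48 TPM in T_I. In tumour-free spleens the values were 5.63, 5.17 and 2.33 TPM in N_GC, 3.69, 4.87 and 4.49 TPM in N_P and 15.8, 13.8 and 11.5 TPM in N_I. T_I lay wholly below N_I, T_P and N_P overlapped, and T_GC overlapped N_GC through T_GC 37. It rose by 1.07 in T_GC (adjusted p = 0.0494), fell by 1.22 in T_I (adjusted p = 0.0126) and differed by -0.12 in T_P (95% interval -0.96 to 0.72). The GC call was lost without T_GC 10, T_GC 21, N_GC 36 or N_GC 94 (0.75 to 1.20, adjusted p up to 0.197), and the I call without T_I 12 (-1.05, adjusted p = 0.0509) and with median-of-ratios factors (-0.75, adjusted p = 0.116).

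The ankyrin and spectrin genes were weakly expressed. Ank1, which ties band 3 to the skeleton, rose by 0.88 in T_GC and by 0.66 in T_P, and differed by 0.35 in T_I. Sptb (beta spectrin) and Epb42 (protein 4.2) were called in none of the 3 comparisons, with differences of -0.24 to 0.70. Kel, a blood group protein, rose by 1.17 in T_P, where it had 3.08 to 10.6 TPM, against 1.5 to 3.31 TPM in N_P, and was not called in T_GC or T_I. Median-of-ratios scaling called Ank1 (0.80) and Kel (1.08) higher in T_I and Sptb (0.71) higher in T_P. Epb41 (protein 4.1), which many cells other than red cells make, measured 50.6, 49.2 and 56.9 TPM in T_GC, 35.6, 35.0 and 34.4 TPM in T_P and 38.4, 38.1 and 35.6 TPM in T_I, against 60.2, 67.6 and 59.5 TPM in N_GC, 61.6, 57.7 and 58.3 TPM in N_P and 62.4, 58.5 and 54.6 TPM in N_I. Each tumour-bearing group lay below its counterpart, with falls of 0.25 in T_GC, 0.74 in T_P and 0.63 in T_I. Under median-of-ratios scaling these shrank to -0.16, -0.26 and -0.12, and P alone was still called.

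**Figure D3:**
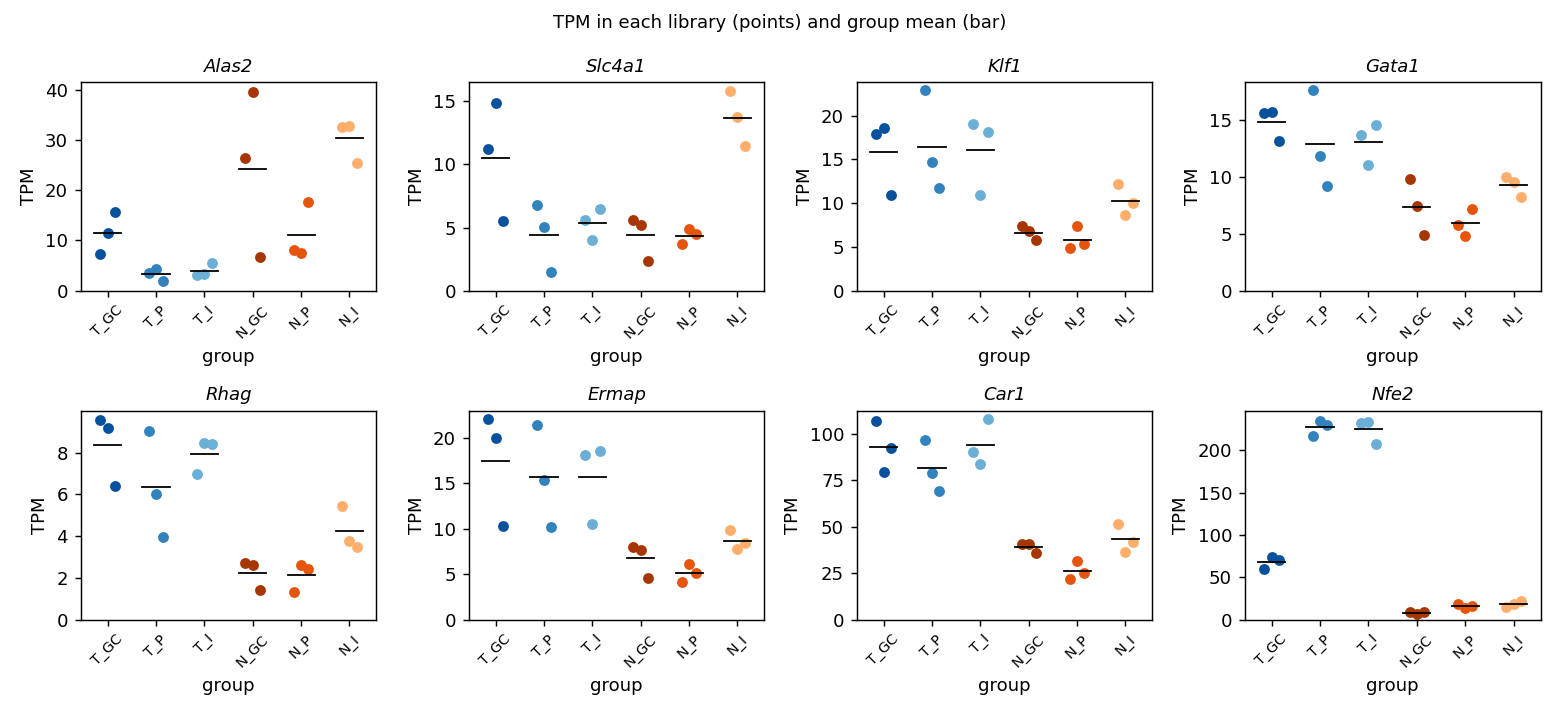
TPM of 8 members in each library, with 3 libraries per group as points and the mean as a bar, on linear axes that start at 0. Alas2 is low in T_P and T_I, Klf1, Gata1, Rhag, Ermap and Car1 are higher in T than in N groups on average, and Nfe2 is highest in T_P and T_I.

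Car1, a carbonic anhydrase of red cells, rose under all 3 codes. It measured 107, 79.4 and 92.7 TPM in T_GC, 97.0, 78.8 and 69.5 TPM in T_P and 90.1, 83.7 and 108 TPM in T_I. It measured 41.0, 40.6 and 36.1 TPM in N_GC, 22.0, 31.5 and 25.3 TPM in N_P and 51.4, 36.6 and 41.8 TPM in N_I. All 9 T libraries lay above all 9 N libraries. Car1 rose by 1.22 in T_GC (limma adjusted p = 4.25e-05), 1.60 in T_P (adjusted p = 4.66e-07) and 1.11 in T_I (adjusted p = 2.24e-05).

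Car2, the carbonic anhydrase that other spleen cells share, measured 174, 160 and 94.2 TPM in T_GC, 180.2, 128 and 91.3 TPM in T_P and 169.9, 80.5 and 176 TPM in T_I. It measured 96.8, 91.6 and 80.4 TPM in N_GC, 68.4, 95.2 and 71.0 TPM in N_P and 109, 89.0 and 110.0 TPM in N_I. Every tumour-bearing group overlapped its counterpart, in each case through the library lowest in Car2, T_GC 37, T_P 43 and T_I 12. Car2 rose by 0.72 in T_P (adjusted p = 0.044), a call lost without T_P 26, T_P 39, N_P 17 or N_P 38 (0.48 to 0.72, adjusted p up to 0.198), and differed by 0.62 in T_GC and 0.39 in T_I, the last 0.91 and called under median-of-ratios scaling.

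Among the maturation factors, Hemgn, a nuclear protein of blood precursors, rose by 1.06 in T_GC and 0.98 in T_P and differed by 0.04 in T_I. Tspo2, a membrane protein of late erythroblasts, rose by 1.44 in T_P and by 0.73 in T_I and differed by 0.57 in T_GC. Its T_P rise started from values under 1 TPM, with 0.29 to 0.51 TPM in N_P, against 2.59 to 2.95 TPM in T_P. Bpgm, which makes the 2,3-bisphosphoglycerate that loosens oxygen from haemoglobin, averaged 14.5 ± 1.92 TPM in T_GC, 6.42 ± 0.436 TPM in T_P and 8.10 ± 2.24 TPM in T_I, against 17.2 ± 4.84 TPM in N_GC, 13.5 ± 1.72 TPM in N_P and 17.2 ± 1.45 TPM in N_I (SD, n = 3 each). It fell by 0.96 in T_P and by 1.02 in T_I, also under median-of-ratios scaling, and differed by -0.20 in T_GC. Xpo7, an exportin linked to nuclear condensation in erythroblasts and made in many cells, fell by 0.60 in T_P and by 0.68 in T_I, and differed by -0.16 in T_GC. Under median-of-ratios scaling the Xpo7 differences were -0.13 in T_P and -0.18 in T_I. Trim10 and Bnip3l, a mitophagy receptor of reticulocytes, were called in none of the 3 comparisons, with differences of -0.43 to 0.53, but that scaling called Bnip3l higher in T_I (0.87).

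**Figure D4:**
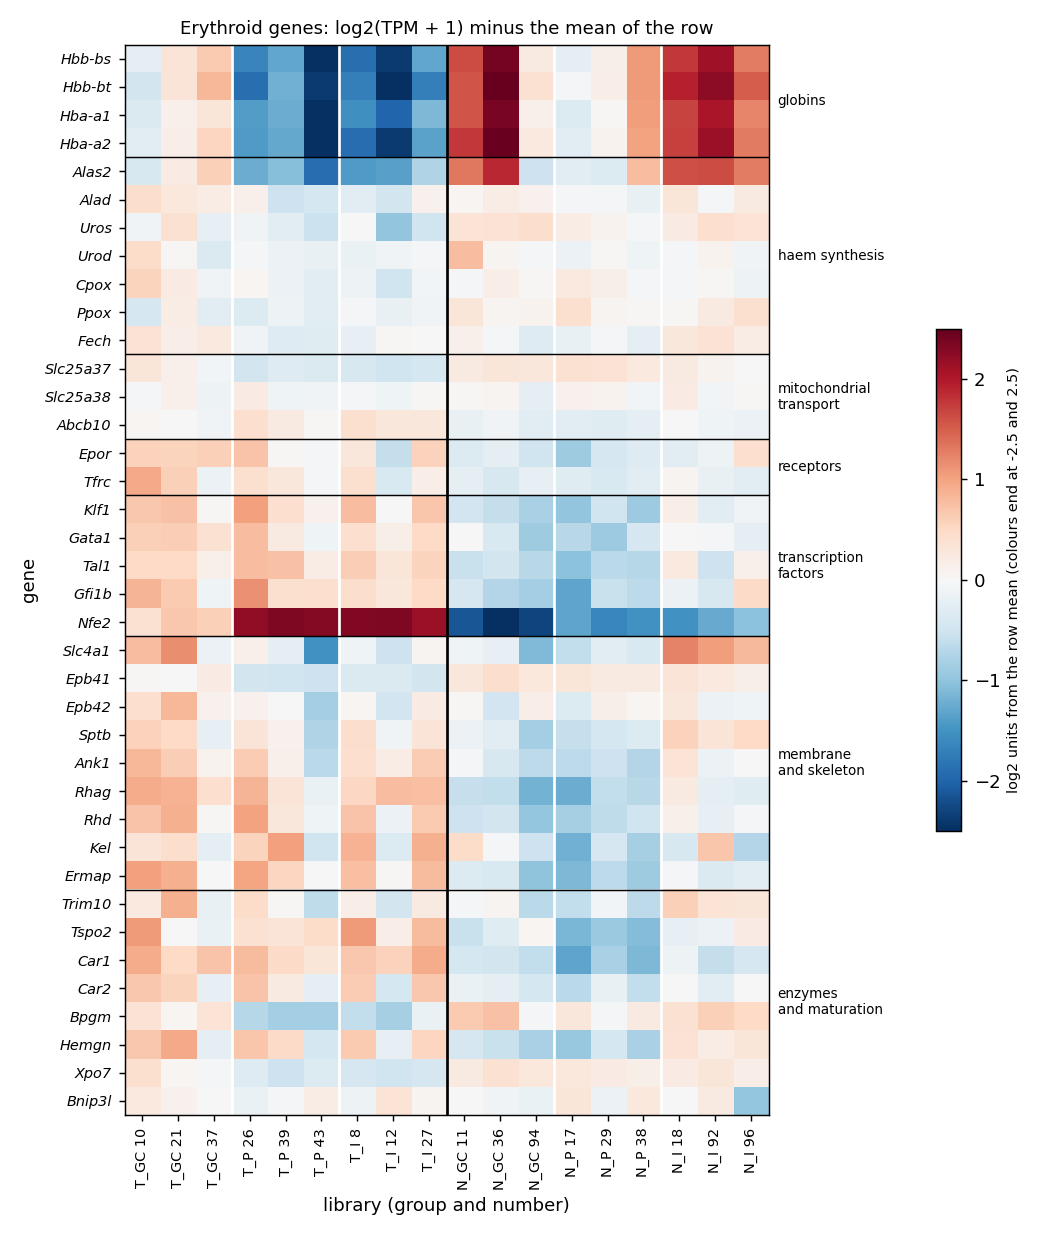
Heat map of log2(TPM + 1) minus the mean of each row for the 38 members that passed the filter (rows, by role) in the 18 libraries (columns, tumour-bearing left of the line). Globins and Alas2 are blue in T_P and T_I, and most transcription factor and membrane rows are red in T and blue in N_GC and N_P.

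In tumour-bearing mice, code GC was set against I and against P, comparisons that share the T_GC libraries. In T_GC against T_I, 13 of 38 members were higher (48.7% of all genes) and 2 lower (12.7%), and in T_GC against T_P, 13 were higher (49.1%) and 1 lower (12.7%). Median-of-ratios scaling left 3 higher and 7 lower against T_I (23.2% and 28.2% of all genes) and 4 and 4 against T_P (23.4% and 28.1%). Without T_I 12, 8 were higher against T_I, and without T_P 43, 2 were lower against T_P. The summed globins rose by 1.98 in T_GC against T_I (limma adjusted p = 0.0036) and by 1.96 against T_P (adjusted p = 0.00388), with all 3 T_GC libraries above all 6 others, and were still called under median-of-ratios scaling (1.51 and 1.47). Hbb-bs rose by 2.11 and 2.10, Hbb-bt by 2.42 and 2.06, Hba-a2 by 2.02 and 1.91 and Hba-a1 by 1.57 and 1.75 against T_I and T_P. Under median-of-ratios scaling Hba-a1 lost both calls (1.09 and 1.27), and the other 3 kept theirs. Markers of other spleen cells were higher in T_GC as well. All 5 B cell markers were called higher, with medians of 2.05 against T_I and 1.92 against T_P, as were all 5 T cell markers (1.85 and 1.95) and 8 of 9 red pulp macrophage markers (1.91 and 2.09). Their part in the globin differences was not tested.

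Alas2 rose by 1.31 against T_I (adjusted p = 0.0312) and by 1.54 against T_P (adjusted p = 0.014), but neither call held under median-of-ratios scaling (0.92 and 1.15). The call against T_I was also lost without T_I 8, T_I 12, T_GC 21 or T_GC 37 (1.08 to 1.28), and that against T_P without T_P 43 or T_GC 37 (1.28 and 1.30). Slc4a1 rose by 1.14 against T_P (adjusted p = 0.0206), a call lost without T_P 43, T_GC 10 or T_GC 21 (0.65 to 1.05) and under that scaling (0.74), and differed by 0.78 against T_I.

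Bpgm rose by 0.79 against T_I and 1.06 against T_P, Slc25a37 by 0.56 and 0.50, Xpo7 by 0.59 and 0.53 and Epb41 by 0.47 and 0.56, and under median-of-ratios scaling those of Slc25a37, Xpo7 and Epb41 came to between 0.01 and 0.14, while Bpgm was called against T_P (0.63) and not against T_I (0.36). Fech rose by 0.32 against T_I, turning to -0.13 under that scaling, and by 0.50 against T_P, where that scaling gave 0.04. Nfe2 fell by 1.71 against T_I (adjusted p = 1.17e-07) and by 1.73 against T_P (adjusted p = 1.07e-07). Abcb10 fell by 0.34 against T_I and differed by -0.24 against T_P, and under that scaling it was called lower in both (-0.74 and -0.65).

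Klf1, Gata1, Rhag, Ermap and Car1, picked here because they were higher in T_GC than in N_GC, were not called between T_GC and T_I. Klf1 differed by -0.01 (95% interval -0.57 to 0.54), Gata1 by 0.17 (-0.31 to 0.65), Rhag by 0.05 (-0.50 to 0.60), Ermap by 0.12 (-0.53 to 0.76) and Car1 by -0.02 (-0.36 to 0.33). With median-of-ratios scaling the signs of Gata1, Rhag and Ermap turned, to -0.27, -0.37 and -0.33, and Car1, at -0.48, was called lower, as was Tal1, at -0.53. The interval of Ermap, the widest of the 5, still allows a difference of 0.76.

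The difference between tumour-bearing and tumour-free spleens was itself compared between GC and I. This contrast, (T_GC - N_GC) - (T_I - N_I), was called higher for 11 members (33.4% of all genes) and lower for 1 (6.93%), and with median-of-ratios scaling for 2 and 2 (14.1% and 19.2%). Without T_I 12 or without N_GC 94, 7 members were higher. The summed globins gave 2.26 (standard error 0.72, limma adjusted p = 0.0217), which was 1.83 under median-of-ratios scaling (adjusted p = 0.0716). Leaving out T_I 12, N_I 92 or N_GC 94 also ended the call (1.998, 2.05 and 1.65, adjusted p of 0.0508 to 0.0560). Slc4a1 gave 2.28 (adjusted p = 0.00482) and Hbb-bt 2.81 (adjusted p = 0.00886), and both were called under that scaling, at 1.88 and 2.41. All 4 globin copies were called higher in the main fit, and 1 under that scaling, Hbb-bt, the weakest copy. The sum, which lost its call, is the firmer measure. For Slc4a1 the larger part lay in the tumour-free spleens, where N_GC differed from N_I by -1.50. T_GC differed from T_I by 0.78, and neither difference was called. Alas2 gave 1.92 (adjusted p = 0.0394), which was not called under that scaling (1.56) nor in 7 of 12 fits without one library, which ranged from 1.21 without N_GC 94 to 2.42 without N_GC 36 (adjusted p up to 0.0807). Nfe2 gave -0.63 (adjusted p = 0.0166) and -1.07 under that scaling. Klf1, Gata1 and Car1 gave 0.54, 0.51 and 0.11, none called. The same contrast was called higher for all 5 B cell markers (median 1.90), 4 of 5 T cell markers (1.41) and all 9 red pulp macrophage markers (2.54), whose part in these results was not tested.

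Between T_P and T_I no member was called, in either direction (0% of all genes higher and 0.012% lower), and none reached an unadjusted p of 0.05 in limma, a level that 6.07% of all genes reached. The summed globins differed by 0.03 with a 95% interval of -1.06 to 1.11, Klf1 by 0.02 (-0.53 to 0.58) and Nfe2 by 0.02 (-0.27 to 0.30). The globin interval still allows a difference of about 1 log2 unit either way.

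Among tumour-free spleens the code made little difference that passed the test. Against N_I, N_GC had no member called higher (0.451% of all genes) and 1 lower (2.3%), which was Nfe2 at -1.08 (limma adjusted p = 0.00152), and 9 members reached an unadjusted p of 0.05 (15.8% of all genes). Against N_P, N_GC again had no member higher (0.427%) and 1 lower (0.745%), Nfe2 at -0.87 (adjusted p = 0.00562), with 6 members at an unadjusted p of 0.05 (14.3% of all genes). All 10 neutrophil markers were lower in N_GC in both comparisons (medians of -3.14 against N_I and -2.53 against N_P), and their part in the Nfe2 results was not tested. Both Nfe2 calls were lost in a fit of the libraries compared alone (adjusted p = 0.0887 and 0.0774). Slc4a1 was 5.63, 5.17 and 2.33 TPM in N_GC, against 15.8, 13.8 and 11.5 TPM in N_I, groups that do not overlap, and its difference of -1.50 had an adjusted p of 0.0587. The median difference of N_GC against N_I was -0.27 over members and 0.04 over all genes. N_GC is the base from which the GC comparison of tumour-bearing mice was measured. Hemgn, for example, averaged 11.2 TPM in T_GC and 9.77 TPM in T_I, against 4.57 TPM in N_GC and 9.16 TPM in N_I.

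N_P against N_I had no member called (0.313% of all genes higher and 0.258% lower), yet the members leaned one way. Of 38 members, 20 reached an unadjusted p of 0.05 (13.5% of all genes), and in 26 all N_P libraries lay below all N_I libraries (13.2% of all genes). The median difference was -0.60 over members and -0.04 over all genes. The summed globins differed by -1.43 (95% interval -2.52 to -0.34, adjusted p = 0.232), Alas2 by -1.46, Slc4a1 by -1.45, Car1 by -0.70 (adjusted p = 0.0753) and Klf1 by -0.73. Of the proliferation markers all 5 reached an unadjusted p of 0.05 in this comparison (median difference -0.57), as did 4 of 9 red pulp macrophage markers (-0.42), and their part in it was not tested. The lower level of N_P is the base from which the P comparison of tumour-bearing mice was measured. Klf1, for example, averaged 16.5 ± 5.77 TPM in T_P and 16.0 ± 4.49 TPM in T_I, against 5.85 ± 1.32 TPM in N_P and 10.3 ± 1.83 TPM in N_I (SD, n = 3 each).

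The globins and Alas2 were also set against Klf1 within each library. The summed globins amounted to 92.5 to 266 times the Klf1 level in T_GC, 28.1 to 55.6 times in T_P and 29.4 to 44.9 times in T_I. They amounted to 406 to 1582 times in N_GC, 291 to 775 times in N_P and 487 to 1011 times in N_I. No T library reached the lowest N library. Alas2 over Klf1 was 0.408 to 1.42 in T_GC, 0.158 to 0.288 in T_P and 0.162 to 0.302 in T_I, against 1.15 to 5.83 in N_GC, 1.03 to 3.36 in N_P and 2.54 to 3.82 in N_I, with T_GC 37 the one T library inside the N range. A ratio within a library does not depend on scaling. It was chosen after the values had been seen and was not tested.

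The libraries within a group differed across the whole set of members. T_I 12 was the lowest of its group in 30 of 38 members, T_P 43 in 28, T_GC 37 in 26 and N_GC 94 in 28. In the remaining groups N_I 96 was lowest in 19 and N_P 17 in 20. These ranks were not counted over all genes, so whether they are particular to the members is unknown. In T_GC 37 the globins and Alas2 were nevertheless the highest of the group, while Klf1, Gata1, Rhag and Ermap were the lowest. In T_I 12, T_P 43 and N_GC 94 the globin sum was the lowest of the group as well.

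Other genes of red cell formation, 47 in all with 40 tested, were counted in the same way. In T_GC against N_GC 18 were higher and 6 lower (14.3% and 18.9% of all genes), in T_P against N_P 18 and 13 (18.9% and 50.3%), and in T_I against N_I 12 and 15 (17.4% and 52.4%). With median-of-ratios scaling these counts were 20 and 2 (18% and 13.1% of all genes), 25 and 8 (32.3% and 30.5%), and 22 and 9 (32% and 30.2%). Tfr2, a partner of the erythropoietin receptor, rose by 1.01 in T_GC, 1.76 in T_P and 1.003 in T_I. Aqp1, the water channel of the red cell membrane, rose by 1.48 in T_GC and 1.35 in T_P and differed by 0.57 in T_I, which median-of-ratios scaling made 1.08 and called. Kit, the stem cell factor receptor of early progenitors and mast cells, rose by 0.78, 1.28 and 0.64, and Add2, the beta adducin of the membrane skeleton, by 1.13, 1.21 and 0.64 in GC, P and I. Other genes of the list fell. Of its 8 transcription genes, 2, 3 and 2 were higher and 4, 4 and 4 lower in GC, P and I, beside the shares of all genes given above. With median-of-ratios scaling 3, 3 and 3 were higher and 2, 3 and 2 lower. Bcl11a had 13.6 to 21.3 TPM in T_I, against 54.9 to 67.7 TPM in N_I. Ldb1 had 89.2 to 97.95 TPM in T_I, against 177.7 to 214 TPM in N_I. The B cell and T cell markers given above were lower in T_I as well, and their part in the falls of Bcl11a and Ldb1 was not tested.

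In T_P and T_I the widest rise and the widest fall of this second list were those of Alas1 and Hmox1, haem genes that other cells use. Alas1, the form of the first haem enzyme found in all tissues, rose by 1.20 in T_GC, 3.18 in T_P and 3.19 in T_I, opposite to Alas2 in T_P and T_I. The neutrophil marker sums given above were also higher in T_P and T_I than in T_GC, and their part in the Alas1 result was not tested. Hmox1, which breaks haem down and is high in red pulp macrophages, fell by 1.94 in T_P and by 2.53 in T_I and differed by -0.24 in T_GC. Red pulp macrophage markers, 9 in number and counting Hmox1, summed to 1154 to 2022 TPM in T_GC, 404 to 479 TPM in T_P and 427 to 509 TPM in T_I, against 1107 to 1308 TPM in N_GC, 1093 to 1419 TPM in N_P and 1415 to 2517 TPM in N_I. In I all 9 were called lower in tumour-bearing spleens, in P 8 were, and in GC none was lower and 1 higher. Their part in the Hmox1 result was not tested. Of 6 embryonic and theta-type globin genes, Hbq1b was the one that passed the filter, which it did through the N_I libraries. Its test is therefore not read as a result. It is nevertheless counted above among the 40 genes tested and among those lower in T_I, also with median-of-ratios scaling. It had 0.0 to 0.93 TPM in T_GC, 0.0 to 0.17 TPM in T_P and 0.44 to 0.66 TPM in T_I, against 0.46 to 2.73 TPM in N_GC, 0.44 to 1.0 TPM in N_P and 1.64 to 3.16 TPM in N_I.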

How the data were processed

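Splenocyte RNA of 18 mouse libraries was analysed from a table of TPM, given with 2 decimals, that the authors deposited. Per the submitters' processing notes, the tools were fastp and RSEM and the build was GRCm39, with versions not given in the sources used here. TPM keep no depth, so no count model, interval or floor on counts was possible. All 18 columns were mapped by title, and 0 were left unused. The 16635 genes that reached 1 TPM in 3 or more libraries were tested on log2(TPM + 1) with limma 3.58.1 in R 4.3.3, in one fit of 6 group means with an intensity trend. Tests were two-sided with Benjamini-Hochberg adjustment over all genes tested and a threshold of 0.05. The procedure was tested on simulated data. The 4 adult globins were also fitted as a sum, and as a beta and an alpha sum.

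Members, roles and marker lists were chosen with earlier results of these data known. Values in every library are given for the globins, Alas2, Epor, Tfrc, Klf1, Gata1, Nfe2, Slc4a1, Car1 and Car2, and, in each comparison, for the called members that rose most and fell most, up to 3 each way. Alternatives were a pseudocount of 0.1, no filter, median-of-ratios scaling, a fit of the compared libraries alone and omission of each library in turn. Protein sequences were planned for the globin copies, and coding sequences of GENCODE transcripts were used in their place. Promoter windows came from RefSeq on GRCm38.p6, matched by symbol for 30 of 40 members. Both are of an earlier build than the table, so they were read by name and joined to no coordinate of it. Python 3.11.15 was used with matplotlib 3.10.9 and pandas 2.3.3, and R with data.table, version 1.17.8.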

Additional observations from a re-analysis of the deposited data

Results flagged for a closer look

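Results are listed here because the difference between tumour-bearing and tumour-free spleens itself differed between codes GC and I in the limma fit, with values in log2 units of (T_GC - N_GC) - (T_I - N_I) and an adjusted p at or under 0.05. The globin sum gave 2.26, Hbb-bt 2.81, Hbb-bs 2.41, Hba-a2 2.25 and Hba-a1 1.87. Slc4a1 gave 2.28 and Alas2 1.92, the Alas2 call being lost in 7 of 12 fits without one library (1.21 to 2.42). The Slc4a1 value joins -1.50 for N_GC against N_I with 0.78 for T_GC against T_I, neither of them called. Smaller positive values were those of Bpgm at 0.83, Fech at 0.67, Xpo7 at 0.52, Slc25a37 at 0.40 and Epb41 at 0.38. Nfe2 alone of the members called was negative, at -0.63. For the globins, Alas2, Slc4a1, Bpgm, Fech, Xpo7, Slc25a37 and Epb41 the T_GC difference was nearer to 0 or higher than the T_I difference. Under median-of-ratios scaling the values called were Hbb-bt and Slc4a1 in the positive direction and Nfe2 and Abcb10 in the negative.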

How the results depend on the processing

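Of the values for the called members that the naming rule picked in each comparison, 445 kept their direction and side of the threshold under the alternatives and 65 kept their direction but lost their call. Of the counts of members and the globin sums, 282 held, 27 counts moved by over 1.5 times, 4 sums changed sign, 4 lost their call and 1 gained one. Under median-of-ratios scaling the members higher and lower were 18 and 7 in T_I against N_I, 4 and 4 in T_GC against T_P, 3 and 7 when T_GC was set against T_I, and 2 and 2 in the contrast of GC with I, with 0 lower in T_GC against N_GC, and the globin sum of that contrast was 1.83 (adjusted p = 0.0716). Without the filter 4 were higher in T_I against N_I. With a pseudocount of 0.1, 1 was lower in N_P against N_I. A fit of the compared libraries alone gave 0 lower in T_GC against N_GC, 1 in T_GC against T_I, 0 in N_GC against N_I, 0 in N_GC against N_P and 1 in N_P against N_I. The cause of these shifts was not tested. With each library left out in turn, members higher ranged from 4 to 10 in T_I against N_I, 11 to 18 in T_P against N_P, 8 to 14 in T_GC against T_I and 7 to 14 in the contrast of GC with I, and members lower from 0 to 6 in T_GC against N_GC and 1 to 2 in T_GC against T_P. The globin sum ranged from -1.89 to -0.79 in T_GC against N_GC, 1.65 to 2.75 in the contrast of GC with I, -0.23 to 0.42 in T_P against T_I and -0.77 to 0.34 in N_GC against N_I. Its sign turned in T_P against T_I without T_I 12 (-0.23), T_P 26 (-0.12) or T_P 39 (-0.23) and in N_GC against N_I without N_GC 94 (0.34), none of them called. No paired analysis was possible because no replicate number is shared between groups. TPM keep no depth, so what depth limits is unknown.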
